A study of Mus musculus with 6 samples.

Results

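The 10 genes described here encode 3 Notch receptors (*Notch1*, *Notch2* and *Notch3*), 4 ligands (*Dll1*, *Dll3*, *Jag1* and *Jag2*) and the 3 Fringe glycosyltransferases (*Mfng*, *Lfng* and *Rfng*). They were chosen by gene symbol, out of 14860 genes for which the array has a transcript cluster, a set of probes summarised as 1 signal, that names that gene alone. Each of the 10 has 1 such cluster. RNA came from GFP+ cells sorted from the dorsal spinal cord of *Wnt1-cre*;*Rosa26mTmG* mouse embryos at E12.5, E11.5 or E10.5 (embryonic days), with 2 arrays per stage and 6 arrays in all. The embryos of all 3 stages carried the same Cre and the same reporter, and no other allele or treatment is given. In these embryos Cre is made under *Wnt1* control, so the GFP label marks cells with a history of *Wnt1* promoter activity, progenitors and neural crest derivatives included, and not a single neuron type. The labels give the cells as dorsal commissural neurons. Whether the arrays of 1 stage hold RNA of separate litters or of pooled embryos is not stated, so the p-values measure only the spread between these arrays. The question the stages address is which genes change in dorsal spinal cells as commissural neurons are born and extend axons. All values are log2 signals as the authors deposited them.

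Notch signalling passes between touching cells. A Delta or Jagged ligand on one cell pulls on a Notch receptor on its neighbour, the receptor is cut, and its intracellular domain enters the nucleus, where it joins the DNA-binding protein RBPJ and switches on repressors of the *Hes* and *Hey* families. In the embryonic neural tube these repressors hold back proneural genes and keep progenitors dividing, while cells that begin to differentiate carry Delta ligands and signal to the progenitors around them. Fringe enzymes lengthen sugar chains on the receptor's extracellular repeats and so bias it between Delta and Jagged ligands.

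Proneural factors bind E-boxes, of which CAGCTG is one form, the repressors of the Hes and Hey families bind CACGTG among other sites, and RBPJ binds a core spelled GTGGGAA. These 3 words were searched for on both strands in the 250 bases before the start of transcription (RefSeq, GRCm38.p6), in the 10 windows listed for 9 of the 10 genes; *Dll1* has 2 windows and *Mfng* was not matched. CAGCTG was found in 4 of the 10 windows, those of *Dll3*, *Jag1* and *Lfng* and 1 of the 2 of *Dll1*, beside 13.0% of all 32851 windows. The 4 windows shown are those that held any of the words, which are in capitals. Of these windows 3 belong to ligands, which make up 4 of the 9 genes searched. The other *Dll1* window, before another start, held none of the words and is not shown.
Dll1, chr17:15376933-15377182, minus strand: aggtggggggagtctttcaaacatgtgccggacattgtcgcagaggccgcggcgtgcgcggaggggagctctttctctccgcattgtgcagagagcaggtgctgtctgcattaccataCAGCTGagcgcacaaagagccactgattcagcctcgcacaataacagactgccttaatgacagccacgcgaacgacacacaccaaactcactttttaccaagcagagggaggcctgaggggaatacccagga
Dll3, chr7:28301786-28302035, minus strand: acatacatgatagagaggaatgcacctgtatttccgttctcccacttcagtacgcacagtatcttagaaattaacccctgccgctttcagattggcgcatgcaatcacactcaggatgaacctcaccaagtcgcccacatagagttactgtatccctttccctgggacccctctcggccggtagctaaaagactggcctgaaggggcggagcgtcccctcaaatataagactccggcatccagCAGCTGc
Jag1, chr2:137116521-137116770, minus strand: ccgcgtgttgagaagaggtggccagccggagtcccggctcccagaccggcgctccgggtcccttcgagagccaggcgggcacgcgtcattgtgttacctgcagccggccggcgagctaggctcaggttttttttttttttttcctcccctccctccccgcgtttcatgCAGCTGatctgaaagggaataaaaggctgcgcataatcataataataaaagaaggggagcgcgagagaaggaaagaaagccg
Lfng, chr5:140607091-140607340, plus strand: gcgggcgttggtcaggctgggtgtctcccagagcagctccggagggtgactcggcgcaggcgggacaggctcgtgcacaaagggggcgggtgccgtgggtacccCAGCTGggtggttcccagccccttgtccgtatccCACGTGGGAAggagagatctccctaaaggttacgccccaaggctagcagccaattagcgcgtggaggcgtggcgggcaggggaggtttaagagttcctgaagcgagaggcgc
In *Dll3* the word begins 7 bases before the start, in *Jag1* 82, in *Dll1* 132 and in *Lfng* 146. The *Lfng* window also held CACGTG, found in 6.02% of all windows, and GTGGGAA, found in 5.42%, beginning 112 and 109 bases before the start and sharing bases, so that they appear above as 1 run of capitals. Neither of these words was found in the windows of the other 8 genes with a window. Base composition differed among the windows, between 52.0% G and C in *Dll3* and 87.2% in *Jag2*. *Rfng* had 75.6% and *Notch2* 72.0%, while the *Dll1* window shown had 56.0% and *Jag1* 57.2%. The median over all windows was 52.4%. A match of letters is a description of the sequence, and binding was not measured.

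Whether a cluster's signal stood above background was read against 859 clusters of olfactory, vomeronasal, taste, trace amine and keratin-associated genes, which spinal cord cells are not known to use. The 95th percentile of their mean signals over the 6 arrays, 5.84, was taken as the detection limit. The means of 7 of the 10 genes lay above it, beside 9859 of all 23332 clusters. Those of *Jag2* (5.52), *Mfng* (5.78) and *Lfng* (5.77) did not. The background was not even across arrays. The same percentile taken on each array alone was 6.55, 6.16 and 6.54 on the replicate 1 arrays, stages in order of age, and 5.37, 5.36 and 5.37 on the replicate 2 arrays. Accordingly 5, 7 and 2 of the 10 genes were above their own array's limit on the replicate 1 arrays, and 9, 10 and 10 on the replicate 2 arrays. The share of all clusters above each array's own limit was not counted. The replicate 1 array of E10.5 also stood apart over all clusters, its mean correlation with the rest being 0.891, where the other arrays had 0.948 to 0.955.

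The 3 receptors were above the detection limit, and *Notch2* alone had later arrays that did not overlap those of E10.5. *Notch1*, a receptor known to keep neural progenitors undifferentiated, gave 6.77 and 6.94 on the E10.5 arrays (replicate 1, then replicate 2, here and below), 6.84 and 7.05 on the E11.5 arrays, and 6.76 and 7.06 on the E12.5 arrays. The stages overlapped, and replicate 2 was the higher array at each of them. The E12.5 minus E10.5 difference in log2 signal was 0.06, with a 95% interval of -0.65 to 0.77 from limma, and the E11.5 minus E10.5 difference was 0.09. *Notch1* was above its own array's limit on all 6 arrays.

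*Notch2*, a second receptor of neural progenitors, gave 6.33 and 6.41 on the E10.5 arrays, 6.17 and 6.24 on the E11.5 arrays, and 6.04 and 6.19 on the E12.5 arrays. Both arrays of each later stage lay below both E10.5 arrays, while E12.5 and E11.5 overlapped. It averaged 6.11 ± 0.10 at E12.5 and 6.37 ± 0.05 at E10.5 (SD, n = 2 each). The difference of -0.25 (95% interval, -0.93 to 0.42), a fold of 0.838, was close to the same in the 2 replicates, at -0.29 and -0.22. The widest gap between replicates, 0.14, was smaller in *Notch2* than in the other 9 genes (its gaps were 0.07, 0.08 and 0.14 at the 3 stages), and the limma fit, which draws each gene's variance towards that of all clusters, gave the difference a standard error of 0.28 and an adjusted p of 0.9913. Without that moderation the unadjusted p of *Notch2* was under 0.05, the only one among the 10 genes in this comparison, beside 973 of all 23332 clusters. The adjusted p of *Notch2* was then 0.9825.

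*Notch3*, which in mouse is used in progenitors and in the smooth muscle of vessels, gave 6.71 and 5.99 on the E10.5 arrays, 6.34 and 6.06 on the E11.5 arrays, and 6.07 and 5.80 on the E12.5 arrays. Replicate 1 was the higher array at every stage, and the stages overlapped. Its E12.5 minus E10.5 difference of -0.41 (95% interval, -1.25 to 0.43) was the largest in size among the 10 genes. It was -0.63 in replicate 1 and -0.19 in replicate 2, and -0.05 without the E10.5 array that stood apart. Of the pericyte and smooth muscle markers, 0 of 6 were above the detection limit, with mean signals over the list of 4.86 and 4.59 at E12.5 and 5.25 and 4.60 at E10.5. Whether fewer cells carried a transcript or each cell carried less of it cannot be told apart in RNA from a whole sort, for this gene or any other here.

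**Figure D1:**
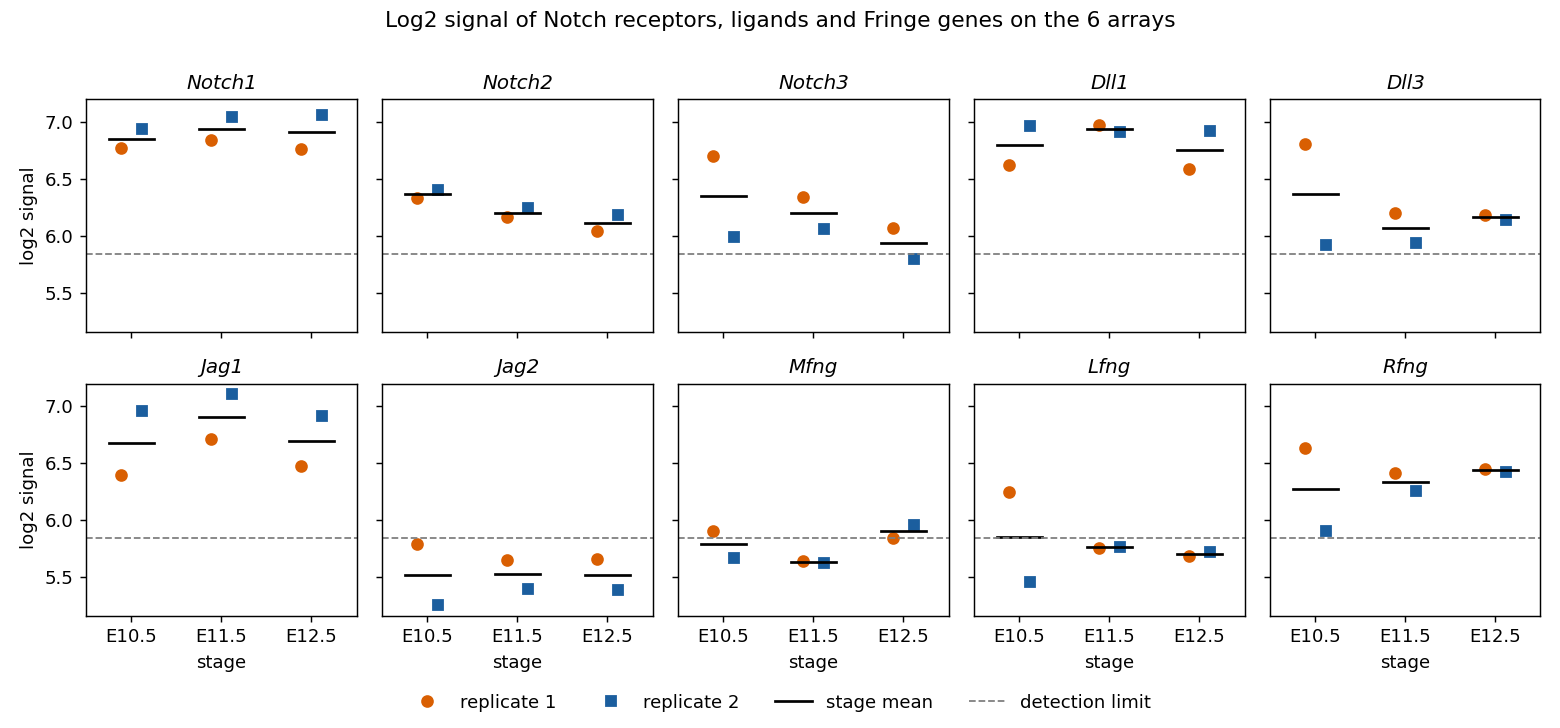
Log2 signal of each of the 10 genes (1 panel per gene) on the 6 arrays, by embryonic stage; circles are replicate 1 arrays, squares replicate 2 arrays, the bars stage means and the dashed line the detection limit of 5.84. *Notch2* lies within a narrow band at each stage, whereas *Notch3*, *Dll3*, *Lfng* and *Rfng* have an E10.5 replicate 1 array 0.72 to 0.89 above replicate 2.

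The ligands *Dll1* and *Jag1*, which activate receptors on neighbouring cells, were above the detection limit and their stages overlapped. *Dll1*, the Delta ligand of newborn neurons, gave 6.63 and 6.97 on the E10.5 arrays, 6.97 and 6.91 on the E11.5 arrays, and 6.59 and 6.92 on the E12.5 arrays. Its E12.5 minus E10.5 difference was -0.04 (95% interval, -0.77 to 0.68), and the 2 replicates were alike in it, at -0.04 and -0.05. *Jag1*, a Jagged ligand found in restricted dorsoventral domains of the neural tube, gave 6.40 and 6.96 on the E10.5 arrays, 6.71 and 7.11 on the E11.5 arrays, and 6.48 and 6.92 on the E12.5 arrays. Replicate 2 was the higher array at every stage, by 0.56, 0.40 and 0.44, and both genes had their highest stage mean at E11.5. The *Jag1* differences were 0.02 (95% interval, -0.82 to 0.86) for E12.5 minus E10.5 and 0.23 (-0.61 to 1.07) for E11.5 minus E10.5.

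*Dll3*, a divergent Delta protein that does not activate Notch on neighbouring cells and acts inside the cell that makes it, gave 6.81 and 5.92 on the E10.5 arrays, 6.20 and 5.94 on the E11.5 arrays, and 6.19 and 6.14 on the E12.5 arrays. The 0.89 between the E10.5 arrays was the widest gap between replicates among the 10 genes. The E12.5 minus E10.5 difference was -0.20 (95% interval, -1.08 to 0.68), being -0.62 in replicate 1 and 0.22 in replicate 2. Without the E10.5 replicate 1 array it was 0.24, so the sign of the *Dll3* value rested on that array. *Jag2*, the second Jagged ligand, gave 5.79 and 5.25 on the E10.5 arrays, 5.65 and 5.40 on the E11.5 arrays, and 5.66 and 5.39 on the E12.5 arrays. Its stage means were 5.52 at each of the 3 stages to within 0.0021, with replicate 1 the higher array throughout. *Jag2* was not above the detection limit, and it passed its own array's limit on 2 of the 6 arrays, so the evenness of its means describes signal near background. The interval of its E12.5 minus E10.5 difference was -0.78 to 0.78.

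Of the Fringe genes, only *Rfng* was above the detection limit. *Rfng*, Radical fringe, gave 6.63 and 5.91 on the E10.5 arrays, 6.41 and 6.26 on the E11.5 arrays, and 6.45 and 6.43 on the E12.5 arrays. Both E12.5 arrays lay above both E11.5 arrays by small margins, and the E10.5 arrays lay on either side of all 4. The gap between replicates was 0.72, 0.16 and 0.02 at the 3 stages. Its E12.5 minus E10.5 difference of 0.17 (95% interval, -0.64 to 0.98) was the highest of the 10 and differed in sign between replicates, at -0.18 and 0.52.

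*Lfng*, Lunatic fringe, known in the neural tube and in the somite clock as a modulator of Delta signalling, gave 6.25 and 5.45 on the E10.5 arrays, 5.76 and 5.76 on the E11.5 arrays, and 5.69 and 5.72 on the E12.5 arrays. The E12.5 arrays lay just below the E11.5 arrays, by 0.06 in the means, and both pairs lay between the 2 E10.5 arrays. Its E12.5 minus E10.5 difference was -0.14 (95% interval, -0.97 to 0.68), and 0.25 without the E10.5 replicate 1 array. *Mfng*, Manic fringe, gave 5.91 and 5.67 on the E10.5 arrays, 5.64 and 5.62 on the E11.5 arrays, and 5.85 and 5.96 on the E12.5 arrays. The E11.5 arrays were the lowest of the 6, below those of both other stages without overlap. *Mfng* averaged 5.90 ± 0.08 at E12.5 and 5.63 ± 0.01 at E11.5 (SD, n = 2 each), a difference of 0.27 (95% interval, -0.41 to 0.95) near background, where both stages hold signals around the detection limit.

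None of the 10 genes passed the test at an adjusted p under 0.05 in limma, for any pair of stages or for any difference among the 3. Nor did any cluster of the 23332 tested: 0% were called between E12.5 and E10.5, 0% between E11.5 and E10.5, 0% between E12.5 and E11.5 and 0% among the 3 stages. At an unadjusted p under 0.05 the count was again 0 of 10 in each, beside 3.98% of all clusters for E12.5 against E10.5, 1.99% for E11.5 against E10.5, 0.909% for E12.5 against E11.5 and 2.25% for any difference. The adjusted p-values of the 10 genes for E12.5 against E10.5 lay between 0.9913 and 0.9997, with standard errors of 0.28 to 0.37. A missed threshold does not show that the stages were alike, and the intervals give the differences that these arrays leave possible. For 8 of the 10 genes the 95% interval of the E12.5 minus E10.5 difference lay within -1 and 1, that is, within a 2-fold change in either direction, beside 30.3% of all clusters; *Notch3* and *Dll3* reached beyond -1.

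**Figure D2:**
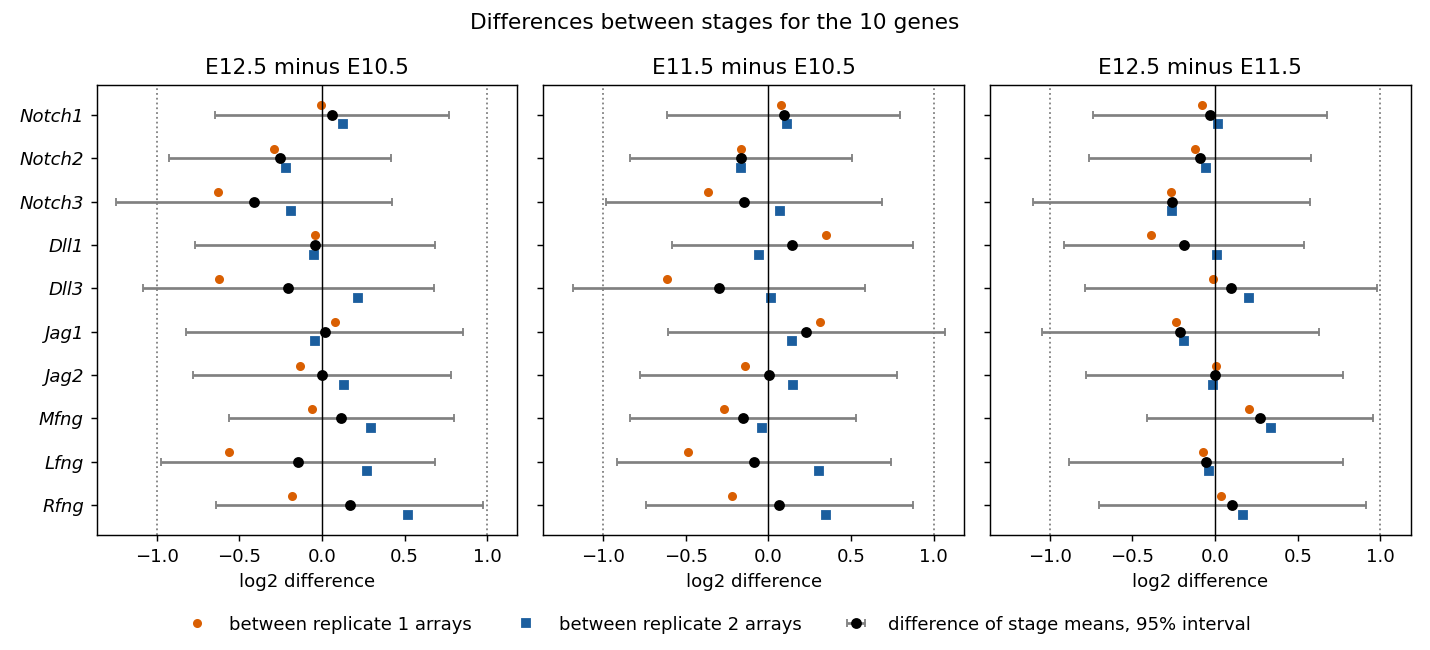
Log2 differences of each of the 10 genes (rows) for E12.5 minus E10.5, E11.5 minus E10.5 and E12.5 minus E11.5 (panels); black points and bars are the difference of stage means and its 95% interval from limma, circles and squares the difference between replicate 1 and between replicate 2 arrays, and dotted lines mark -1 and 1. All intervals cross 0, and for E12.5 minus E10.5 the differences run between -0.41 for *Notch3* and 0.17 for *Rfng*.

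Counts without a test were read beside the same share over all clusters; the 3 comparisons share arrays, so their counts are not independent. For E12.5 against E10.5 the arrays did not overlap in 1 of 10 genes (*Notch2*), beside 23.4% of all clusters. For E11.5 against E10.5 they did not overlap in 2 (*Notch2* and *Mfng*), beside 19.4%, and for E12.5 against E11.5 in 3 (*Mfng* and *Rfng* above, *Lfng* below), beside 21.9%. None ran in strict stage order over all 6 arrays, beside 1.57% of clusters rising and 1.57% falling. The E12.5 minus E10.5 difference was above 1 in size in 0 genes, beside 4.94% of clusters, and had the same sign in both replicates in 3 (*Notch2*, *Notch3* and *Dll1*), beside 55%. It lay below 0 in 5 of 10, beside 61.6% of all clusters. The corresponding counts were 5 of 10 beside 59.1% for E11.5 minus E10.5 and 7 of 10 beside 53.8% for E12.5 minus E11.5. With 10 genes, counts as low as these fix the shares only loosely.

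The spread between replicates set the scale of these values. In 2 of the 10 genes the range of the stage means was larger than the widest gap between replicates, *Notch2* (0.25 against 0.14) and *Mfng* (0.27 against 0.24), beside 14.3% of all clusters. The widest gap fell at E10.5 in 8 of the 10 genes, and at E12.5 in *Notch1* and *Notch2*. *Notch3*, *Dll3*, *Jag2* and *Rfng* were higher on replicate 1 at all 3 stages, and *Notch1*, *Notch2* and *Jag1* on replicate 2 at all 3. In the other 3, *Dll1*, *Mfng* and *Lfng*, the direction changed with stage. The shares of all clusters with the widest gap at E10.5, or with 1 direction throughout, were not counted. Clusters naming 1 gene above the detection limit averaged 7.05 and 7.37 on the E10.5 arrays, and those not above it 4.99 and 4.39. The replicate 1 arrays were also those with the higher background given above, and the part of the background in the gaps of the 10 genes was not tested.

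**Figure D3:**
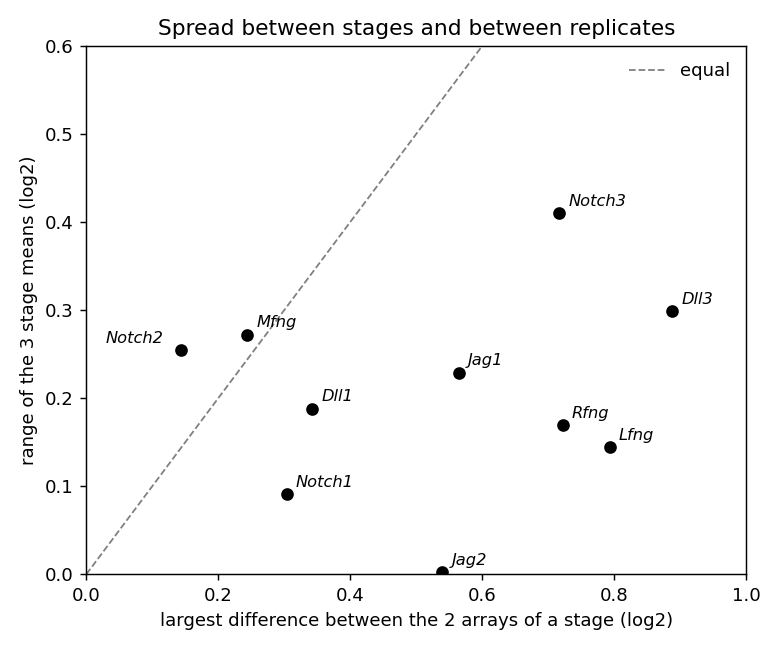
Range of the 3 stage means of each of the 10 genes (vertical axis, log2) against its widest gap between the 2 replicates of a stage (horizontal axis, log2); the dashed line marks equality. *Notch2* and *Mfng* lie above the line, and *Dll3*, *Lfng*, *Rfng* and *Notch3* lie farthest to the right, with gaps of 0.72 to 0.89.

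By role, the median E12.5 minus E10.5 difference was -0.25 over the 3 receptors, -0.02 over the 4 ligands and 0.12 over the 3 Fringe genes. Over all 10 genes it was -0.02, being -0.16 in replicate 1 and 0.13 in replicate 2. The median over all clusters was -0.10. Clusters naming 1 gene had a median of 0.05 above the detection limit and -0.17 where they were not above it. With all 6 arrays a value below 0 was thus usual for a gene near background. The median of the clusters not above the limit was, however, -0.31 in replicate 1 and -0.01 in replicate 2. Over all clusters the median was 0.06 without E10.5 replicate 1.

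The rest of the pathway was read from 60 further genes listed by role, of which 42 have a cluster naming them alone and 27 of these were above the detection limit. None of the 42 passed the test in either direction in any comparison. The E12.5 minus E10.5 difference was below 0 in 32 and above 0 in 10, with a median of -0.14, being -0.31 in replicate 1 and 0.01 in replicate 2. Without the E10.5 array that stood apart it was below 0 in 22 and above 0 in 20, with a median of -0.02, and 20 of the 42 changed sign. Without that array 42.9% of all clusters lay below 0, with a median of 0.06, and 10014 of the 23332 changed sign. With all 6 arrays, the difference was below 0 in 17 of the 27 genes above the limit, with a median of -0.07. Among the other 15 it was below 0 in all 15, with a median of -0.26. Over all clusters naming 1 gene, 44.7% of those above the limit and 75.9% of those not above it lay below 0.

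The direct target repressors, through which the pathway acts on progenitors, had differences below 0 in 5 of 5 genes, with a median of -0.48, and none passed the test. *Hes5* gave 7.83 and 6.85 on the E10.5 arrays, 7.05 and 6.86 on the E11.5 arrays, and 7.14 and 6.93 on the E12.5 arrays, a difference of -0.30 (95% interval, -1.22 to 0.62). *Hey1* gave 7.09 and 6.24 on the E10.5 arrays, 6.39 and 6.51 on the E11.5 arrays, and 6.05 and 6.20 on the E12.5 arrays. It was the one gene of the list whose E12.5 arrays did not overlap those of E10.5, as in 23.4% of all clusters. Its difference was -0.54 (95% interval, -1.39 to 0.32), and both genes were highest on the E10.5 array that stood apart. The other 3, *Hes1* (-0.48), *Heyl* (-0.48) and *Hey2* (-0.13), were not above the detection limit. The list's median was -0.56 in replicate 1 and -0.14 in replicate 2. Without the E10.5 array that stood apart, 4 of 5 were below 0 with a median of -0.11, beside 42.9% of all clusters, and *Hes5* was 0.18.

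Of 7 listed proneural and neurogenic factors, which switch on Delta ligands or follow them in the neuronal programme, 5 were measured. *Neurog2*, a proneural activator, had E12.5 arrays of 6.65 and 6.92 against E10.5 arrays of 7.16 and 6.93, a difference of -0.26 (95% interval, -0.95 to 0.44). *Hes6*, a Hes-related protein that promotes differentiation, had E12.5 arrays of 7.01 and 6.93 against E10.5 arrays of 6.83 and 6.71, a difference of 0.20 (-0.47 to 0.87). In both the arrays of the 2 stages did not overlap, as in 23.4% of all clusters, though only narrowly in *Neurog2*. The zinc-finger factor *Insm1* had a difference of -0.46, which was -0.03 without the E10.5 array that stood apart, and *Neurog1* (-0.08) and *Neurog3* (-0.10) were not above the limit; without that array *Neurog1* was 0.40 and *Neurog2* -0.14.

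Elsewhere in the pathway the extremes of each list were as follows. In receptor maturation, *Adam10*, the protease of the ligand-induced cut, had the highest difference of all 42, 0.81 (95% interval, -0.30 to 1.92), and *Furin*, which cuts the receptor on its way to the surface, had -0.36. *Adam10* gave 8.44 and 9.03 at E12.5 against 7.28 and 8.56 at E10.5, so the low value lay on the E10.5 array that stood apart and the stages overlapped; without that array the difference was 0.18, and that of *Furin* -0.01. Among further enzymes that add or extend O-linked sugars on the receptor's repeats, 5 of 5 differences were below 0. They ran between -0.80 for *Eogt* and -0.07 for *Poglut1*, but only 2 of the 5 genes were above the detection limit. Without the E10.5 array that stood apart 3 of 5 were below 0, beside 42.9% of all clusters, with *Eogt* at -1.33 and *Poglut1* at -0.52. Among genes of ligand ubiquitination, which lets the ligand be pulled into its cell, *Mib1* had 0.51 and *Neurl1a* -0.22. Both signs rested on the E10.5 array that stood apart, the values without it being -0.18 for *Mib1* and 0.33 for *Neurl1a*. In receptor trafficking and turnover, *Fbxw7*, part of the ligase that removes the active intracellular domain, had 0.47, and *Dtx1* -0.16, against 0.11 and 0.37 without that array. In the nuclear complex, *Ep300*, a coactivator, had 0.19 with that array and -0.10 without it, and *Rbpj*, the DNA-binding protein, had -0.81 (95% interval, -1.72 to 0.10). *Rbpj* gave 4.17 and 4.25 at E12.5 against 5.46 and 4.58 at E10.5, all below the detection limit. These arrays did not overlap, as in 23.4% of all clusters, and the difference was -0.37 without the E10.5 replicate 1 array. The other receptors and ligands ran between -0.26 for *Dll4* and -0.11 for *Dlk2*, and were 0.24 and 0.44 without it.

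**Figure D4:**
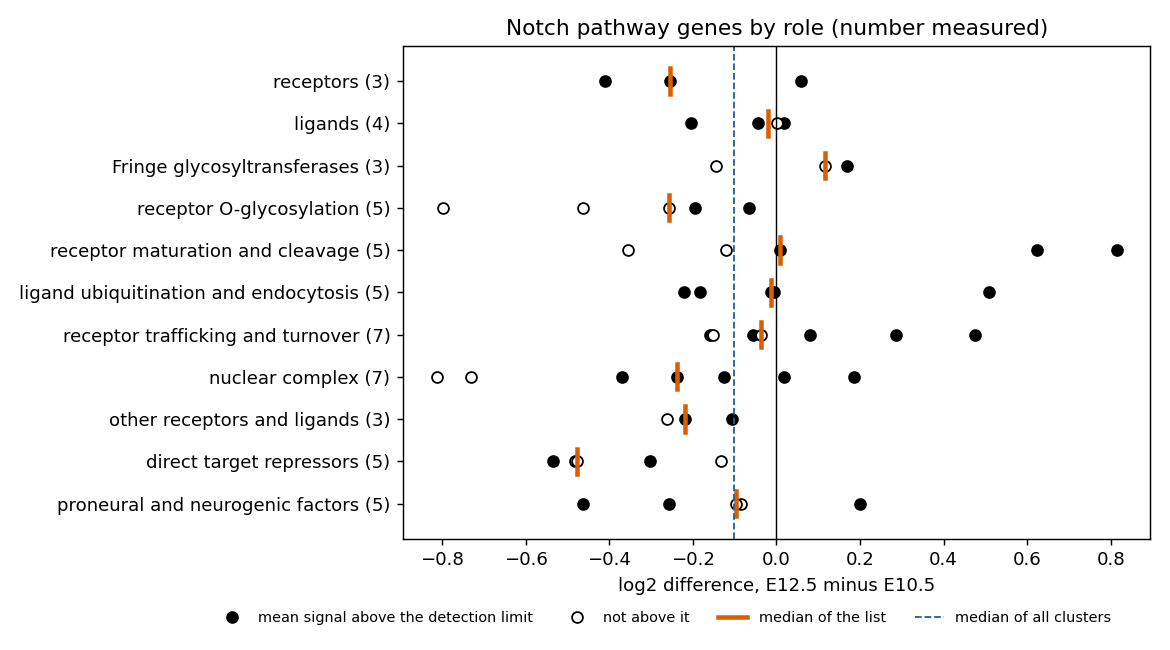
Log2 difference, E12.5 minus E10.5, of each measured gene by pathway list (rows), with filled points above the detection limit, open points not above it, a bar at each list's median and a dashed line at the median of all clusters, -0.10. The 5 target repressors and the 5 enzymes of receptor O-glycosylation all lie left of 0, and *Adam10* and *Rbpj* lie at the 2 ends, 0.81 and -0.81.

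The make-up of the sorted cells was read from marker lists. Of 9 listed markers of postmitotic neurons 8 were measured and all 8 were above the limit. Their E12.5 minus E10.5 difference was above 0 in 7, with a median of 0.63, the exception being *Nefm* (-0.68), and the list's mean signal was 9.36 and 9.62 at E12.5 against 8.89 and 9.08 at E10.5. The cell cycle genes measured, 6 of 8 listed, all had differences below 0, with a median of -0.55 and list means of 7.46 and 7.77 at E12.5 against 7.81 and 8.56 at E10.5. Progenitor markers, 8 of 8 above the limit, had differences below 0 in 6 and above 0 in *Pax3* (0.49) and *Fabp7* (0.35), with a median of -0.35, medians of -0.12 and -0.11 within replicates 1 and 2, and list means of 8.05 and 8.06 at E12.5 against 8.17 and 8.35 at E10.5. *Hes5*, of the target repressors above, is also among these progenitor markers. Without the E10.5 array that stood apart the medians were 0.45 for neurons, -0.99 for the cell cycle and -0.16 for progenitors. *Pax3* was then 0.21 and *Fabp7* -0.01. None of these markers passed the test at an adjusted p under 0.05. Markers of dividing progenitors were thus above the limit beside those of the neurons for which the sort is labelled, and their part in the values of the 10 genes was not tested. Endothelial markers passed the limit in 0 of 7 genes, with list means of 4.37 and 3.94 at E12.5 against 4.69 and 3.95 at E10.5. Neural crest and Schwann cell precursor markers passed it in 2 of the 4 measured, of 6 listed. Their list means were 6.18 and 6.03 at E12.5 against 6.52 and 6.40 at E10.5. Markers of microglia and macrophages passed the limit in 1 of 6 genes and of mesenchyme in 2 of 7. Those of floor plate and ventral cord did so in 1 of 5. Of 6 listed red blood cell markers only 2 were measured, *Hba-x* and *Alas2*, and both passed it. Among all clusters naming 1 gene, 6749 of 14996 were above the limit.

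The genes whose pattern over the 6 arrays was most like that of the members at the 2 ends were found among 6748 other clusters naming 1 gene above the limit, as a description, since arrays of the same replicate share a background. For *Rfng* they were *Disp3* (Pearson's r = 0.987), *Adamts7* (0.985), *Epb41l1* (0.981), *Plppr2* (0.978) and *2700081O15Rik* (0.977), and 75 clusters had an r over 0.9. For *Notch3* they were *Cmtm7* (0.996), *Wdr90* (0.991), *Zfp275* (0.990), *Insm1* (0.990) and *Unc45a* (0.989), and 328 clusters had an r over 0.9. *Insm1*, of the neurogenic list above, shared with *Notch3* its high value on the E10.5 replicate 1 array, 6.85, and its higher replicate 1 array at every stage.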

How the data were processed

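RNA of GFP+ cells from 6 samples was hybridised to GeneChip Mouse Exon 1.0 ST arrays. The authors deposited log2 signals per transcript cluster, normalized and summarised with oligo on the mm9 assembly according to the submitters' processing notes; its version and settings are not given in the sources used here. Array medians of the deposited values ran between 5.33 and 5.73 and their SDs over clusters between 1.66 and 1.96, so the scale was not made equal between arrays. The deposited values were used as they are, without a filter. Of 23332 clusters, 14996 name 1 gene in the platform annotation, 1019 name several and 7317 are not listed; genes were read only from clusters naming 1.

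A linear model was fitted with limma 3.58.1 under R 4.3.3 (a mean per stage, moderated variances, two-sided, Benjamini-Hochberg over all clusters, adjusted p under 0.05). The fit was tested on simulated data. Other calculations used Python 3.11.15, pandas 2.3.3 and numpy 2.4.6, and figures matplotlib 3.10.9. Named were all 10 members, the target repressors and proneural genes, the extremes of each other pathway list, any gene called, and the 5 genes most like the members at the 2 ends; other genes were chosen after their values were seen. The members, lists and tests were chosen with earlier results of these data known. Alternatives were a replicate block, other moderation, quantile normalization, median centring, subsets of clusters, the compared stages alone, a straight line over the stages, other detection limits and leaving out each array. Values of the pathway and marker lists without E10.5 replicate 1, and intervals with the block, were added after the data were seen. The number of arrays limits the precision. Promoter windows came from RefSeq (GRCm38.p6), a build other than that of the files, and were matched by symbol.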

Additional observations from a re-analysis of the deposited data

How the results depend on the processing

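No member passed an adjusted p under 0.05 in any comparison under any alternative, and of the 30 differences (10 genes, 3 comparisons) 10 kept their sign throughout. *Notch2* kept it in all 3 comparisons, and *Notch3* in both that involve E12.5; for E12.5 minus E10.5 *Notch2* was -0.12 after centring the array medians and *Notch3* -0.05 without E10.5 replicate 1. With a replicate block, 0 of 10 genes and 0 of 23332 clusters were called; the block leaves differences of stage means as they are (-0.25 for *Notch2*, E12.5 minus E10.5) and changes only their errors. With it the 95% intervals of all 10 members for E12.5 minus E10.5 lay within -1 and 1, *Notch3* at -0.99 to 0.17 and *Dll3* at -0.89 to 0.49. The share of all clusters within these bounds was counted only without the block, where it was 30.3% beside 8 of 10 members. The labels do not say what arrays of the same number share; deviations of the replicate 1 arrays from their stage means correlated at 0.455, 0.469 and 0.484 between stages. The block among clusters naming 1 gene called 27 clusters for E12.5 against E10.5, with 0 members among them. Leaving out E10.5 replicate 2 called 325 there and 250 for E11.5 against E10.5, again with 0 members, but E10.5 is then only the array that stood apart and is assumed to vary like the other stages; leaving out that array instead called 0.

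Quantile normalization turned the sign of *Rfng* for E11.5 minus E10.5 (-0.0068) and of *Notch1* (0.0056) and *Jag2* (0.045) for E12.5 minus E11.5. Centring the array medians turned *Dll1* for E12.5 minus E10.5 (0.090), *Lfng* for E11.5 minus E10.5 (0.0013), and *Notch1* (0.011) and *Jag2* (0.042) for E12.5 minus E11.5. The median difference of all clusters for E12.5 minus E10.5 was -0.10 as deposited, -0.02 after quantile normalization and 0.03 after centring. After quantile normalization the E12.5 and E10.5 arrays did not overlap in 2 members (*Notch2* and *Mfng*). After centring they did not overlap in 3 (*Notch3*, *Mfng* and *Rfng*). *Notch2* was thus the lone member without overlap only as deposited. These counts were added after seeing the data. The share of all clusters was counted only for the deposited values, so these 2 counts have no background beside them. With the 99th percentile of background as the limit, 3 members were above it, and with the 90th 10. The share of all clusters above these other limits was not counted.

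Leaving out 1 array at a time turned signs in most members. The ranges for E12.5 minus E10.5 were -0.092 to 0.21 for *Notch1*, -0.21 to 0.13 for *Dll1*, -0.65 to 0.24 for *Dll3*, -0.27 to 0.30 for *Jag1*, -0.27 to 0.27 for *Jag2*, -0.0046 to 0.24 for *Mfng*, -0.54 to 0.25 for *Lfng*, -0.19 to 0.53 for *Rfng*. For E11.5 minus E10.5 they were -0.011 to 0.19 for *Notch1*, -0.51 to 0.21 for *Notch3*, -0.026 to 0.32 for *Dll1*, -0.74 to 0.15 for *Dll3*, -0.053 to 0.51 for *Jag1*, -0.27 to 0.27 for *Jag2*, -0.49 to 0.31 for *Lfng*, -0.30 to 0.43 for *Rfng*. For E12.5 minus E11.5 they were -0.18 to 0.12 for *Notch1*, -0.035 to 0.23 for *Dll3*, -0.43 to 0.0096 for *Jag1*, -0.14 to 0.13 for *Jag2*. The alternative of another cluster for the same gene was not run, since each member has 1. With 2 arrays per stage, the 95% intervals of *Notch3* and *Dll3* without the block reached beyond a 2-fold change, and 3 of the 10 signals lay near background.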
